A study of Rattus norvegicus with 9 samples.

Results

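Podocyte nuclei were the nuclei to which the authors had given the cell type label Podo in single-nucleus ATAC sequencing (snATAC-Seq) of whole rat kidneys, an assay in which a transposase tags open chromatin and every nucleus carries a barcode. All nuclei with that label were taken from all 9 libraries, which gave 607 of 53298 nuclei (1.14%). The label was 11th of 12 in frequency. The labels of convoluted (PCT), straight (PST) and injured (iPT) proximal tubule were set aside as proximal nuclei, and podocytes made up 2.53% of the 23996 non-proximal nuclei.

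The rats were male Sprague-Dawley rats for which the labels give 6 weeks as age. Rats of the study were also treated for as long as that, so this entry may stand for the time of treatment. Control rats had a sham operation, sesame oil injections and tap water. All other rats lost 1 kidney, received the mineralocorticoid deoxycorticosterone acetate (DOCA) at 50 mg/kg each week and drank salt water. DOCA rats were gavaged with vehicle alone, and the treated groups received finerenone (10 mg/kg/day), spironolactone (50 mg/kg/day) or amiloride (20 mg/kg/day) on top of DOCA and are called Finerenone, Spironolactone and Amiloride here. Spironolactone is a steroidal and finerenone a nonsteroidal antagonist of the mineralocorticoid receptor, and amiloride blocks the epithelial sodium channel. The doses of the drugs differed, and Control differed from every other group in surgery, hormone and salt together. The study killed some rats early and most later and profiled single nuclei at both times, but which time each snATAC-Seq library stands for is not given in the sources used here.

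Podocytes are the epithelial cells that wrap the glomerular capillaries with interlocking foot processes. The slit diaphragm between these processes, of which nephrin (Nphs1) is a core protein, holds back plasma proteins. The transcription factor Wt1 and the surface sialoprotein podocalyxin (Podxl) are further markers of the cell. Mature podocytes hardly divide, and their loss is a known feature of glomerular scarring, which occurs in DOCA-salt hypertension. Values per gene were not analysed here, so accessibility at Nphs1, Wt1 and Podxl could not be examined and the label stands as the authors gave it.

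Each group except Amiloride had 2 libraries, 1 from a kit that profiles chromatin by itself (scATAC) and 1 from a kit that profiles chromatin and RNA together (Multiome). Amiloride had 1 Multiome library. The libraries held 1817 to 15235 nuclei, of which 462 to 6211 were non-proximal. In all, 2724 nuclei (5.11%) had a barcode sequence that also occurred in another library, among them 24 podocytes (3.95%), and 0 of the 24 barcodes carried the Podo label in both libraries. The barcode lists of the kits also served to assign the kit of each library within its group. The file's codes of both DOCA libraries share a stem, as do those of both Spironolactone libraries and those of the Control Multiome and Amiloride libraries, and whether these came from the same kidney or rat is not stated. P values therefore measure the spread between these libraries, which may be technical in part.

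As a share of non-proximal nuclei, given further below, podocyte nuclei were more frequent in the Control and Finerenone libraries than in the DOCA and Spironolactone libraries. Their raw counts also depend on the size of the library. In Control the label was given to 38 nuclei of the scATAC and 151 of the Multiome library. It was given to 9 and 58 in DOCA, 23 and 162 in Finerenone, 10 and 56 in Spironolactone, and 100 in Amiloride. The Multiome libraries thus held 527 of the podocytes and the scATAC libraries 80. Counts this low set the width of the exact Clopper-Pearson 95% intervals that follow each share in parentheses, and these cover counting error only.

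As a share of non-proximal nuclei, podocytes in Control were 8.23% (5.89 to 11.1) with scATAC and 5.05% (4.29 to 5.89) with Multiome, with a group mean of 6.64% ± 2.25 (SD, n = 2). In DOCA they were 1.03% (0.470 to 1.94) and 1.13% (0.858 to 1.46), in the same order, with a mean of 1.08% ± 0.0728 (SD, n = 2). Both DOCA libraries lay below both Control libraries, and their intervals did not touch those of Control. In Finerenone the shares were 3.98% (2.54 to 5.91) and 5.63% (4.81 to 6.53), with a mean of 4.80% ± 1.16 (SD, n = 2). In Spironolactone they were 1.53% (0.734 to 2.79) and 0.902% (0.682 to 1.17), with a mean of 1.21% ± 0.442 (SD, n = 2). Finerenone overlapped Control, and Spironolactone overlapped DOCA. The Amiloride library, at 2.38% (1.94 to 2.89), was above every DOCA and Spironolactone library and below every Control and Finerenone library, but its interval met those of the Spironolactone and Finerenone scATAC libraries. The shares spanned a 9.12-fold range over the libraries.

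**Figure D1:**
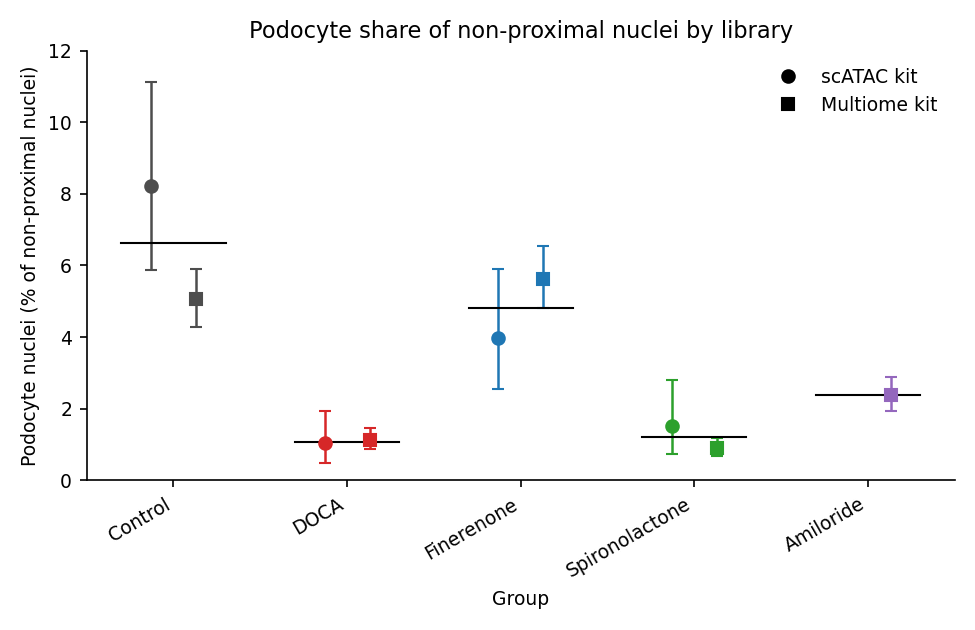
Podocyte nuclei as a percentage of non-proximal nuclei (vertical axis) in each of the 9 libraries by group, with circles for the scATAC kit, squares for the Multiome kit, exact 95% intervals as bars and the group mean as a line. The 4 Control and Finerenone libraries sit between 3.98% and 8.23%, and the 5 others between 0.902% and 2.38%.

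The comparison of DOCA with Control asked whether the frequency of podocytes differed in the disease model. Podocytes fell by 2.63 on the log2 odds scale (95% interval -3.56 to -1.71, odds 6.20-fold lower), with an adjusted p of 1.41e-05 in a limma fit of the 9 non-proximal labels with group and kit as terms and Benjamini-Hochberg adjustment. The difference was -3.05 between the scATAC libraries and -2.21 between the Multiome libraries. In this comparison 4 of the 9 labels (44.4%) passed the threshold of 0.05, so podocytes were 1 of several. Intercalated cells (IC), which transport acid and base in the collecting duct, fell by 1.47 (adjusted p = 0.00886), and myofibroblasts (MyoFib) fell by 1.30 (adjusted p = 0.0165). Macrophages (Mac) rose by 2.73 (adjusted p = 1.41e-05). Since shares of a library sum to a fixed total, a higher share of macrophages lowers that of podocytes and of the other labels. Relative to PCT, IC differed by -0.51 and MyoFib by -0.47, and relative to Endo by -0.43 and -0.38, none of which passed. Relative to DCT both passed (-1.92 and -1.88). MyoFib had 8 and 31 nuclei in the Control libraries and 5 and 26 in the DOCA libraries. With macrophages left out of the total, the podocyte difference was -2.48. Without the nuclei whose barcode occurred in another library it was -2.59 (adjusted p = 2.43e-05). Libraries were also left out, always singly, and the 9 differences obtained in that way lay between -2.97 and -2.29 and all passed. Only the removal of a DOCA or Control library could change the difference itself, since both groups have both kits. Removing a Finerenone or Spironolactone library could change only the p value, and removing Amiloride could change neither.

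The number of macrophages per podocyte, which carries both counts, differed widely between the libraries. The Control libraries held 0.50 (scATAC) and 0.205 (Multiome) macrophages per podocyte, and the DOCA libraries held 11.3 and 11.9. The ratio was 1.61 and 0.407 in Finerenone, 3.80 and 7.27 in Spironolactone, and 0.620 in Amiloride. As a share of non-proximal nuclei, macrophages were 4.11% and 1.04% in Control, 11.6% and 13.5% in DOCA, 6.40% and 2.29% in Finerenone, 5.80% and 6.55% in Spironolactone, and 1.48% in Amiloride. Macrophages outnumbered podocytes in 5 of the 9 libraries: both DOCA libraries, both Spironolactone libraries and the Finerenone scATAC library.

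The treated groups were compared with DOCA to ask which drug went with a different frequency of podocytes. Podocytes rose by 2.17 in Finerenone (95% interval 1.24 to 3.09, odds 4.49-fold higher, limma with Benjamini-Hochberg adjustment, adjusted p = 0.000454), by 1.95 in the scATAC and 2.38 in the Multiome libraries. Of the 9 labels, 3 (33.3%) passed: MyoFib also rose by 1.29 (adjusted p = 0.0232) and Mac fell by 1.83 (adjusted p = 0.00170). Without the Finerenone Multiome library the podocyte difference was 1.66 and did not pass (adjusted p = 0.0534). It passed without any other single library. The DOCA libraries enter all 3 drug comparisons, and Control libraries enter each comparison with Control, so these comparisons are not independent.

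Spironolactone and DOCA could not be separated by their podocytes. The difference was 0.12 (95% interval -0.80 to 1.05, adjusted p = 0.852), at 0.57 between the scATAC and -0.33 between the Multiome libraries. The interval reaches from a 0.575-fold to a 2.07-fold odds ratio, so changes of either sign up to that size are compatible with these libraries. In the limma fit 0 of the 9 labels (0%) passed, and 2 had an unadjusted p under 0.05. In Amiloride the difference from DOCA was 1.26 (95% interval 0.08 to 2.43, adjusted p = 0.0673), which did not pass. In that comparison 4 of the 9 labels (44.4%) did: endothelium (Endo, 1.93), loop of Henle (LOH, -1.87), Mac (-2.85) and MyoFib (1.62). With 1 Amiloride library, this group is assumed to vary like the others. Without either Finerenone library the podocyte difference was 1.38 and passed (adjusted p = 0.0323).

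Set against Control, podocytes fell by 2.51 in Spironolactone (95% interval -3.43 to -1.59, odds 5.69-fold lower, limma, adjusted p = 5.86e-05), at -2.48 and -2.54 within the kits. This held without any single library (-2.89 to -2.13), although only the removal of a Spironolactone or Control library could change the difference itself. Of the 9 labels 2 (22.2%) passed, the other being Mac, which rose by 1.61 (adjusted p = 0.00591). The podocyte difference between Finerenone and Control was -0.47 (95% interval -1.39 to 0.46, adjusted p = 0.554), with -1.10 between scATAC and 0.16 between Multiome libraries, so the kits differed in direction. In this comparison 0 of 9 labels (0%) passed, and 1 had an unadjusted p under 0.05. In Amiloride the difference from Control was -1.38 (95% interval -2.55 to -0.20, adjusted p = 0.106), and 1 of 9 labels (11.1%) passed, LOH at -1.98 (adjusted p = 0.0169).

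Finerenone and Spironolactone both block the same receptor and were given at different doses. At these doses podocytes were higher by 2.04 in Finerenone (95% interval 1.12 to 2.96, odds 4.12-fold higher, limma, adjusted p = 0.000953), at 1.38 and 2.70 within the kits. The Podo label was the only 1 of the 9 (11.1%) that passed in this comparison. Without the Finerenone Multiome library the difference was 1.54 (adjusted p = 0.0872), and without the Spironolactone Multiome library it was 1.66 (adjusted p = 0.0734). On the arcsine square root scale it did not pass either (adjusted p = 0.0883). The effect of dose and that of the compound cannot be told apart.

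The kit term of podocytes was -0.25 (95% interval -0.91 to 0.40, limma, adjusted p = 0.646). Of the 9 labels 1 (11.1%), the fibroblasts, differed between kits (-1.03, adjusted p = 0.0278), and 4 had an unadjusted p under 0.05. The limma fit of the shares took 1 spread for all labels (SD 0.45 on the log2 scale, 27 degrees of freedom), although shares of 1 library are not independent of each other. A test that uses podocytes alone was therefore added to it. In an exact permutation of the group labels within kits over 2880 assignments, one-sided in F, the share differed over the 5 groups with p = 0.10, against a smallest possible p of 0.00833. By that test the group differences in the share did not pass.

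The ratio of podocytes to a single other label does not move with the remaining labels. PCT nuclei come from the cortical segment that drains the glomerulus, distal convoluted tubule (DCT) nuclei from a cortical segment downstream of it, and Endo nuclei include the capillaries that podocytes wrap. Per 1000 PCT nuclei there were 34.7 (24.4 to 48.0) podocytes in Control scATAC and 190 (159 to 227) in Control Multiome. In DOCA the ratio was 12.7 (5.78 to 24.2) and 45.5 (34.3 to 59.2), and in Finerenone it was 43.3 (27.2 to 65.7) and 126 (106 to 149). Spironolactone had ratios of 9.11 (4.36 to 16.8) and 13.3 (10.1 to 17.4), and Amiloride of 30.2 (24.5 to 36.8). The Multiome library was higher than the scATAC library in all 4 groups with both kits, and the Control and DOCA libraries overlapped across kits.

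Per 1000 DCT nuclei there were 745 (476 to 1157) and 324 (268 to 390) podocytes in Control (scATAC first), and DOCA had 52.9 (23.8 to 103) and 55.8 (42.1 to 72.7). Finerenone libraries had 271 (163 to 433) and 607 (496 to 740), Spironolactone libraries 90.9 (42.4 to 174) and 52.6 (39.5 to 68.8), and Amiloride 103 (82.9 to 126). All 4 Control and Finerenone libraries were above the other 5, but the kits were in opposite order in these groups, with scATAC higher in Control and Multiome higher in Finerenone.

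Per 1000 Endo nuclei there were 475 (314 to 707) and 374 (308 to 452) podocytes in Control. DOCA had 130 (57.2 to 262) and 134 (100.03 to 176), and Finerenone 479 (278 to 803) and 386 (320 to 463). Spironolactone had 81.3 (38.0 to 155) and 91.1 (68.0 to 120), and Amiloride 97.4 (78.5 to 120). Libraries of a group lay closest together on this ratio, with group means of 424 ± 71.6 in Control, 132 ± 2.49 in DOCA, 432 ± 66.1 in Finerenone and 86.2 ± 6.90 in Spironolactone (SD, n = 2 each). The Amiloride library, intermediate by share, was below both DOCA libraries here. In Amiloride, Endo nuclei were 24.5% of non-proximal nuclei, the highest of the 9 libraries.

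**Figure D2:**
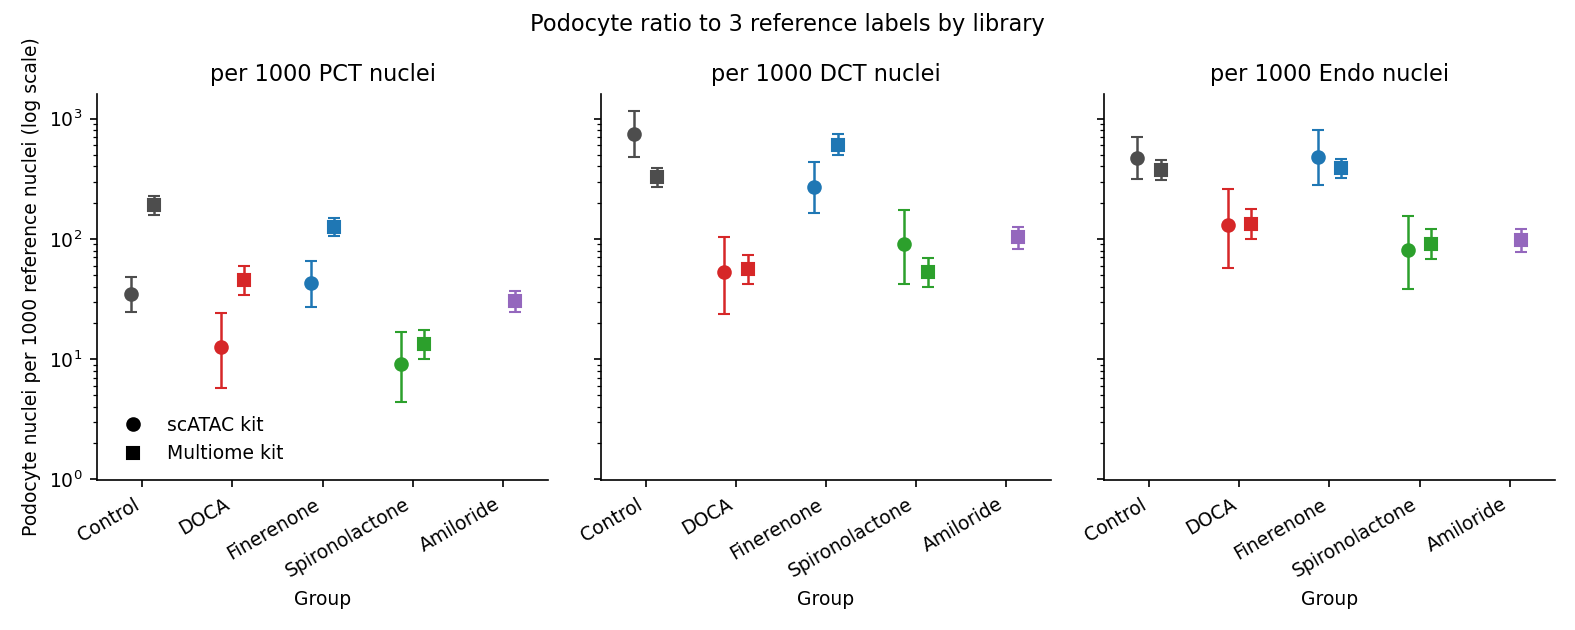
Podocyte nuclei per 1000 nuclei of PCT, DCT and Endo (vertical axis, log scale) in each library by group, with circles for the scATAC kit, squares for the Multiome kit and exact 95% intervals as bars. Relative to Endo, the 4 Control and Finerenone libraries sit between 374 and 479 and the 5 others between 81.3 and 134.

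Each ratio was fitted like the share, over 11 labels. Relative to DCT, podocytes fell by 3.14 in DOCA against Control (95% interval -4.56 to -1.72, limma, adjusted p = 0.00585, 4 of 11 labels passed, 36.4%) and rose by 2.87 in Finerenone against DOCA (95% interval 1.45 to 4.29, adjusted p = 0.0114, 2 of 11 labels, 18.2%). With DOCA scATAC left out, the former no longer passed (-2.98, adjusted p = 0.0820). The latter no longer passed with DOCA scATAC (2.71, adjusted p = 0.150), DOCA Multiome (3.02, adjusted p = 0.0741) or Finerenone Multiome left out (1.96, adjusted p = 0.125). The DCT label itself went the opposite way by share of non-proximal nuclei, without passing in limma. It differed by 0.70 in DOCA against Control (adjusted p = 0.169) and by -0.89 in Finerenone against DOCA (adjusted p = 0.131). The part of DCT in these ratios was not tested.

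Relative to PCT, the difference between DOCA and Control was -1.73 (95% interval -3.25 to -0.20, adjusted p = 0.112, 1 of 11 labels passed, 9.09%), and that between Finerenone and DOCA was 1.59 (adjusted p = 0.233, 0 of 11 labels, 0%, with 2 at an unadjusted p under 0.05 in limma). Relative to Endo they were -1.64 (95% interval -2.88 to -0.40, adjusted p = 0.0515, 2 of 11 labels, 18.2%) and 1.67 (adjusted p = 0.113, 0 of 11 labels, 0%, with 2 at an unadjusted p under 0.05 in limma). Neither of these pairs passed, although both libraries of the group moved in the direction seen for the share. Without the Control scATAC library the PCT difference of DOCA and Control was -2.31 and passed (adjusted p = 0.0124), and without either Control library that of Finerenone and DOCA passed (1.59, adjusted p = 0.0307). The Endo difference of DOCA and Control passed without either Finerenone library (-1.64, adjusted p = 0.0274) and with 1 in place of 0.5 added to counts (-1.61, adjusted p = 0.0466).

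Spironolactone was below Control under all 3 references. The difference was -2.85 relative to PCT (adjusted p = 0.0222, 1 of 11 labels, 9.09%), -2.80 relative to DCT (adjusted p = 0.0137, 1 of 11, 9.09%) and -2.26 relative to Endo (adjusted p = 0.0216, 1 of 11, 9.09%), and in each of these 3 limma fits Podo was the label that passed. Leaving out single libraries ended some of these calls. The PCT call was lost without either DOCA library (-2.85, adjusted p = 0.0553), without either Finerenone library (-2.85, adjusted p = 0.0652) or once Spironolactone Multiome was dropped (-2.14, adjusted p = 0.471), and the DCT call once that same library was dropped (-2.38, adjusted p = 0.255). The Endo call was lost without either Control library (-2.12 without scATAC, adjusted p = 0.205, and -2.40 without Multiome, adjusted p = 0.222), either DOCA library (-2.26, adjusted p = 0.136) or either Spironolactone library (-2.09 without scATAC, adjusted p = 0.0965, and -2.43 without Multiome, adjusted p = 0.0742).

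Finerenone was above Spironolactone under all 3 references, by 2.72 relative to PCT (adjusted p = 0.0301), 2.53 relative to DCT (adjusted p = 0.0275) and 2.29 relative to Endo (adjusted p = 0.0196), and in each limma fit Podo was again the 1 label of 11 (9.09%) that passed. The PCT call was lost without any 1 library of DOCA (2.72, adjusted p = 0.0773), Finerenone (2.69 without scATAC, adjusted p = 0.250, and 2.75 without Multiome, adjusted p = 0.231) or Spironolactone (3.43 without scATAC, adjusted p = 0.0533, and 2.01 without Multiome, adjusted p = 0.594). The DCT call was lost without Finerenone Multiome (1.61, adjusted p = 0.308), Spironolactone scATAC (2.94, adjusted p = 0.0708) or Spironolactone Multiome (2.11, adjusted p = 0.458). The Endo call was lost without either Control library (2.29, adjusted p = 0.0587), either DOCA library (2.29, adjusted p = 0.125) or either Spironolactone library (2.12 without scATAC, adjusted p = 0.177, and 2.46 without Multiome, adjusted p = 0.0678).

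The remaining ratios to PCT, DCT and Endo did not pass for podocytes. Spironolactone against DOCA was -1.13 relative to PCT, 0.34 relative to DCT and -0.62 relative to Endo, where 0 of 11 labels passed in each limma fit (0%) and 2, 1 and 1 labels had an unadjusted p under 0.05. Finerenone against Control was -0.13, -0.27 and 0.03, again with 0 of 11 labels passing in each (0%) and 0, 1 and 0 at an unadjusted p under 0.05. Amiloride differed from DOCA by -0.49, 0.99 and -0.40 and from Control by -2.21, -2.14 and -2.04, in the same order of references. In the comparison of Amiloride with DOCA, 5 (45.5%), 2 (18.2%) and 5 (45.5%) of 11 labels passed, and in that with Control 1 (9.09%), 2 (18.2%) and 1 (9.09%), none of them Podo. Without a Control library, the Amiloride difference from Control passed relative to PCT (-2.65 without scATAC, adjusted p = 0.00421) and DCT (-2.96 without Multiome, adjusted p = 0.00772), and without either Finerenone library it passed relative to DCT (-1.92, adjusted p = 0.0430) and Endo (-2.07, adjusted p = 0.0486).

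**Figure D3:**
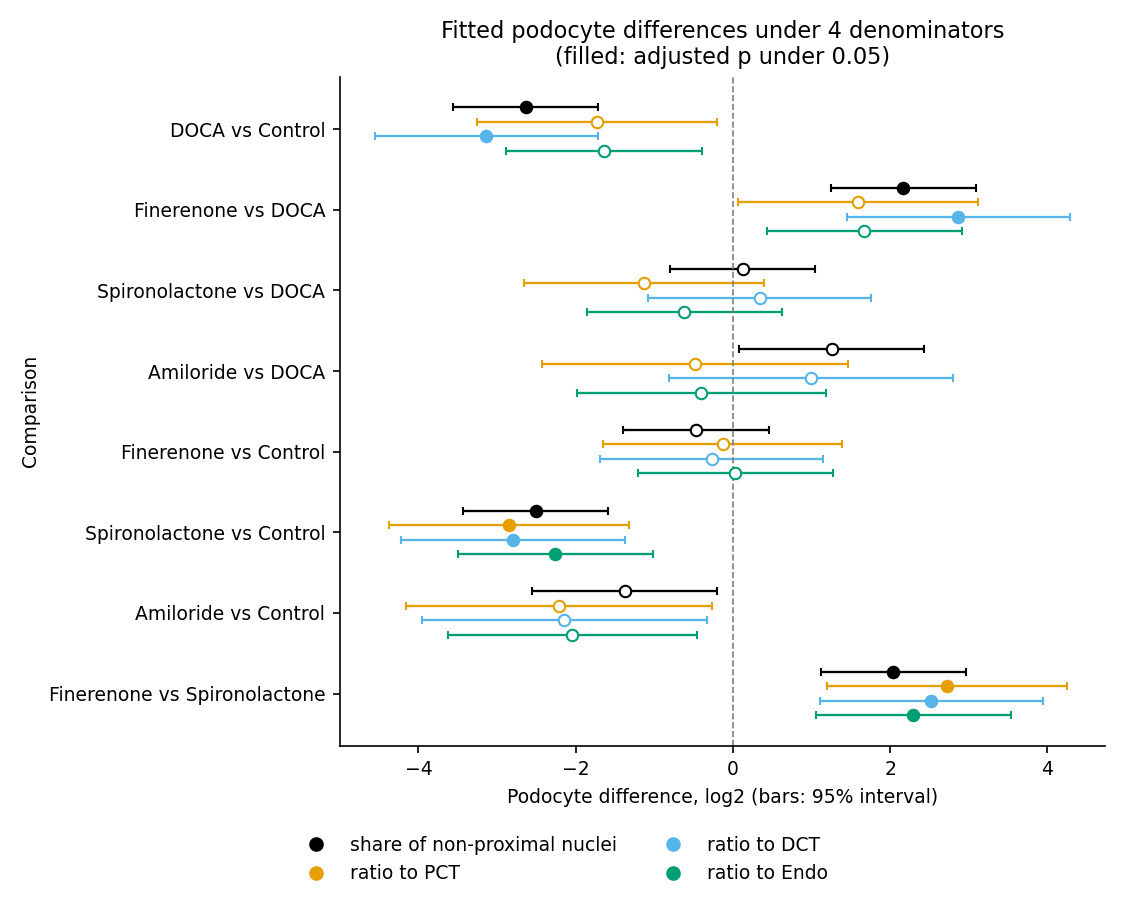
Fitted podocyte differences (horizontal axis, log2, bars 95% intervals) for 8 comparisons of groups (vertical axis) as the share of non-proximal nuclei and as the ratio to PCT, DCT and Endo, with filled points for an adjusted p under 0.05. The 4 readings of Spironolactone against Control lie between -2.85 and -2.26 and are filled, whereas those of DOCA against Control lie between -3.14 and -1.64 with 2 of 4 filled.

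The kit moved the ratio to PCT, which was 2.94-fold higher in Multiome libraries (log2 1.56, limma, adjusted p = 0.0207). The kit terms of the 11 labels relative to PCT ran from 0.54 (PST) to 2.48 (IC), and 6 of the 11 (54.5%) passed as higher with Multiome. The kit term was -0.22 relative to DCT (0 of 11 labels passed, 0%, with 3 at an unadjusted p under 0.05 in limma) and -0.15 relative to Endo (1 of 11 labels, 9.09%). In the exact permutation within kits, the ratio to Endo differed over the groups at p = 0.00833, the smallest p these permutations can give, with p = 0.0333 after Benjamini-Hochberg adjustment over the 4 readings. The ratio to PCT (p = 0.0833) and that to DCT (p = 0.117) did not pass the exact permutation, each with an adjusted p of 0.117.

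Each of the 11 other labels was then used as the reference in turn, a set of fits chosen after the data were seen. DOCA was below Control under 11 of 11 references, within both kits each time, from -5.12 relative to Mac to -1.21 relative to PST, and passed in limma under 8. It did not pass relative to Endo, PCT and PST. Finerenone was above DOCA under 11 of 11 references, again within both kits, from 0.83 (MyoFib) to 3.81 (Mac), and passed under 5. Spironolactone was below Control and passed under 11 of 11 (-3.99 relative to Mac to -1.94 relative to IC), and Finerenone was above Spironolactone under 11 and passed under 7. The 11 references share the podocyte count of each library, so they are not 11 separate tests. Spironolactone was below DOCA under 5 references and above it under 6, with 0 passing in limma and 0 at an unadjusted p under 0.05. Amiloride was above DOCA under 8 references and below it under 3, and passed in limma under 4, namely relative to Mac (3.92, adjusted p = 0.00418), iPT (3.37, adjusted p = 0.0147), LOH (2.78, adjusted p = 0.00347) and fibroblasts (2.21, adjusted p = 0.0112). It was below Control under 9 references and passed under 1, relative to principal cells (PC, -2.20, adjusted p = 0.0164). Single libraries were left out only of the fits relative to PCT, DCT and Endo. Finerenone was below Control under 9 references and above it under 2, again with 0 passing in limma and 0 at an unadjusted p under 0.05.

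**Figure D4:**
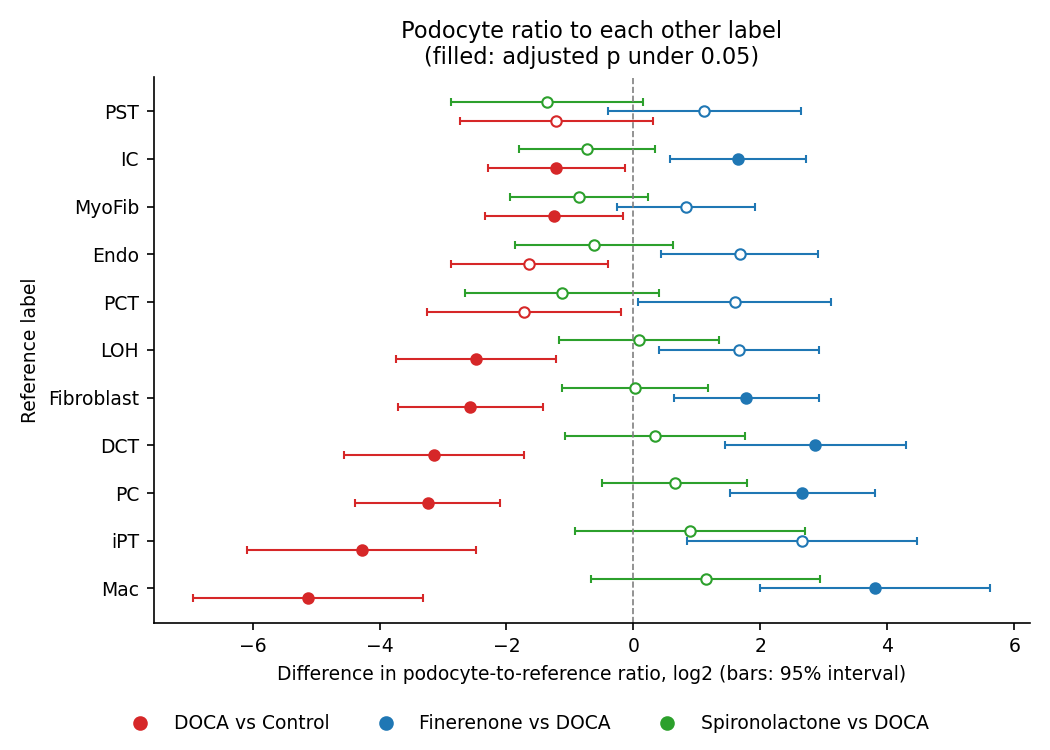
Fitted difference in the podocyte ratio (horizontal axis, log2, bars 95% intervals) to each of the 11 other labels (vertical axis) for DOCA against Control, Finerenone against DOCA and Spironolactone against DOCA, with filled points for an adjusted p under 0.05. Points of the first comparison lie between -5.12 and -1.21, those of the second between 0.83 and 3.81, and those of the third between -1.36 and 1.14.

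These values are counts of nuclei that passed isolation and the authors' quality limits. Fewer podocytes in the kidney and a lower recovery of their nuclei cannot be told apart from them, nor can a different share of cortex in the tissue. The share of proximal nuclei, at 81.2% and 41.3% in the Control libraries and between 43.8% and 75.9% in the others, differed between libraries of a group, and its part in the podocyte differences was not tested beyond the change of denominator.

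On the authors' UMAP, a map on which nuclei with similar accessibility lie close together and whose axes have no unit, podocytes formed a compact group at the edge. The labels and the map come from the same accessibility data, so its separation is a description without a test. The median podocyte lay at -9.30 on axis 1 and -3.40 on axis 2. Of the 607 podocytes, 597 (98.4%, 97.0 to 99.2) had mostly podocytes among their 15 nearest neighbours, and 465 (76.6%) had nothing else. These 597 nuclei lay within 0.674 of the centre, between -9.98 and -8.68 on axis 1 and between -3.82 and -2.91 on axis 2, on a map that spans 16.8 and 17.5. By the share of nuclei with mostly their own label as neighbours, podocytes ranked 2nd of the 12 labels, after fibroblasts (98.8%). The nearest label centres were those of MyoFib (4.62), fibroblasts (4.84) and PST (6.89), while Endo was at 8.77, PCT at 12.2 and DCT at 17.1.

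The other 10 podocyte nuclei lay apart, at distances of 7.05 to 8.68 from the centre. Of these, 9 belonged to the Control Multiome library, 5.96% (2.76 to 11.01) of its podocytes, and had iPT as the commonest other label around them. The remaining nucleus was in the Finerenone Multiome library, with Endo around it. The 10 nuclei had 109 iPT, 18 Podo and 17 Endo nuclei among their neighbours, and 4 of them had 0 podocyte neighbours. Counting only the 597 grouped podocytes changed the share difference between DOCA and Control from -2.63 to -2.59 (limma, adjusted p = 1.92e-05). Among the 9105 neighbours of all podocytes, 96.8% were Podo and 1.47% iPT, with IC, PCT, LOH, PST, Endo, PC and DCT below 0.5% each.

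Conversely, 15 nuclei with other labels lay inside the podocyte group. They were 5 IC, 3 PCT, 2 LOH, 2 iPT and 1 each of DCT, PC and PST, and 7 of the 15 came from the Amiloride library. No macrophage, endothelial, fibroblast or MyoFib nucleus was among them.

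**Figure D5:**
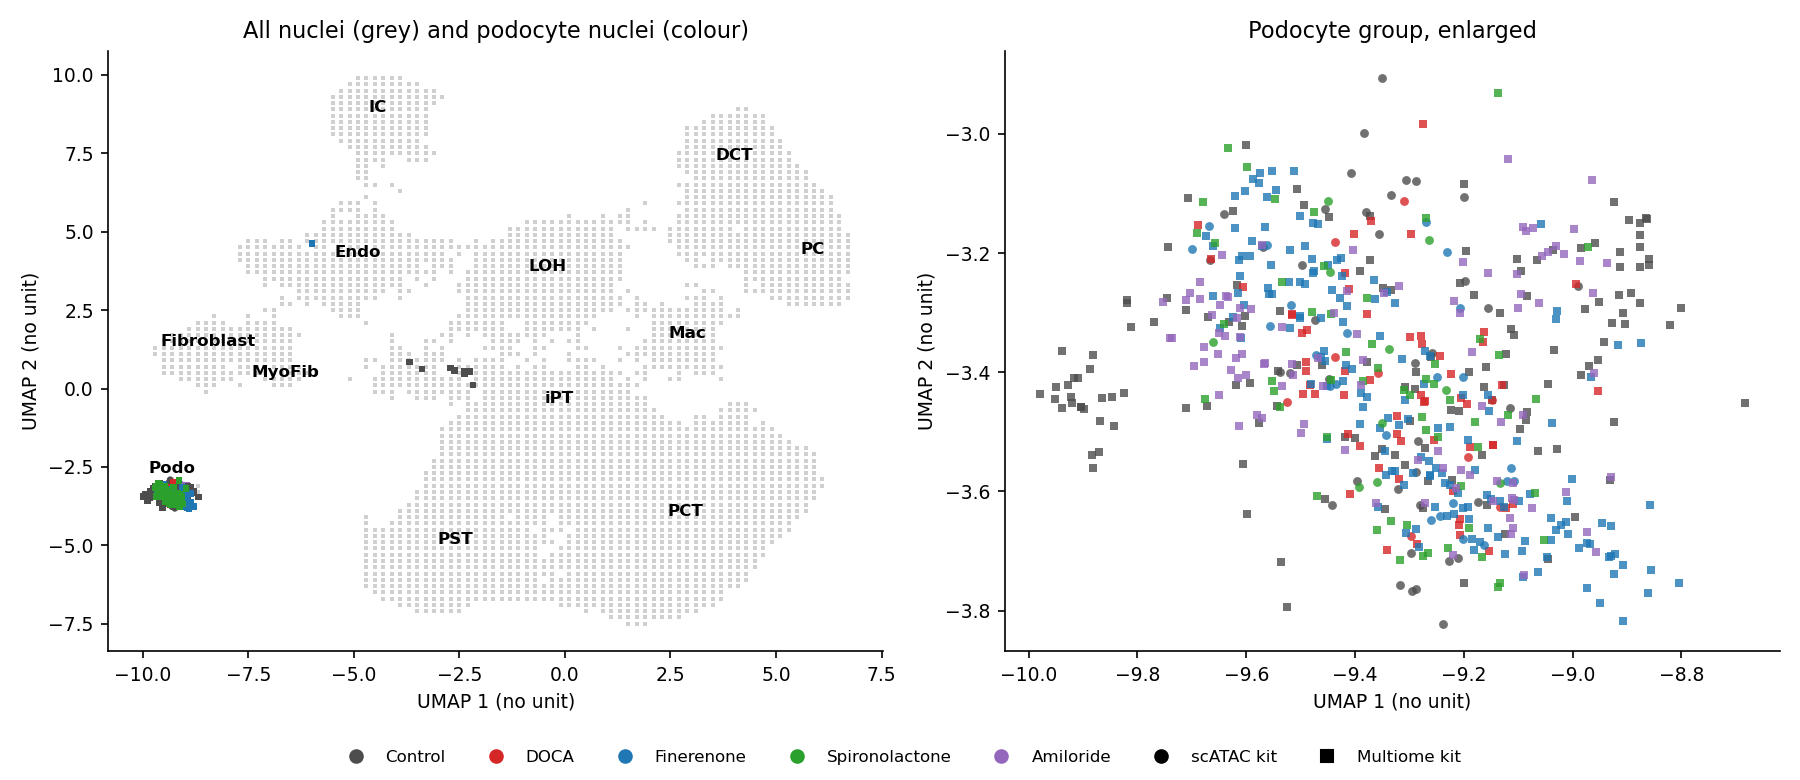
UMAP of all nuclei (left, grey bins, with label names at label centres) with podocyte nuclei coloured by group, and the podocyte group enlarged (right, circles for scATAC, squares for Multiome), both axes without unit. Of 607 podocyte nuclei 597 fall in 1 group at the lower left, and 9 of the 10 others are Control Multiome nuclei beside iPT.

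On this map, which the authors had corrected for batches, the median positions of the podocytes of the 9 libraries were 0.0274 to 0.0591 from the common centre. The median distance of single podocytes from that centre was 0.291 (scATAC) and 0.372 (Multiome) in Control, 0.225 and 0.182 in DOCA, 0.246 and 0.281 in Finerenone, 0.215 and 0.247 in Spironolactone, and 0.309 in Amiloride. The difference of this distance over the groups did not pass (exact permutation within kits, one-sided in F, p = 0.167), and the order of the kits changed between groups. Among the 597 grouped podocytes, the share of the 15 nearest grouped podocytes that came from the same library varied between libraries. It was 44.1% in Control Multiome, which held 23.7% of the other grouped podocytes. The values were 43.0% against 26.8% in Finerenone Multiome and 31.7% against 16.6% in Amiloride, but 11.8% against 9.56% in DOCA Multiome and 10.6% against 9.23% in Spironolactone Multiome. With scATAC they were 14.9% against 6.21% in Control and 6.38% against 3.69% in Finerenone, while the 9 DOCA and 10 Spironolactone podocytes had 0% against 1.34% and 1.33% against 1.51%.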

How the data were processed

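Nuclei were isolated from whole kidneys and passed through a strainer, and libraries were made with a scATAC kit (4) or a Multiome kit (5). As stated in the methods and processing notes, the authors used Cell Ranger ATAC 1.1.0 with rat build rn6, merged libraries in Signac 1.3.0, filtered nuclei on the number and share of fragments in peaks, on nucleosome signal and on enrichment around start sites, corrected batches with Harmony and clustered by the Louvain method. Losses at these steps are part of every count. The methods text names more data sets in the merging than the 9 samples used here. The deposited metadata give library code, treatment and label as names, and the deposited UMAP coordinates are a score without unit. Both tables were joined by barcode. No doublet caller or further filter was applied.

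Groups came from the treatment labels. The kit was assigned within groups from barcode sharing: Multiome pairs shared 53 to 244 barcodes (10 pairs), scATAC pairs 5 to 13 (6 pairs) and pairs across kits at most 1 (20 pairs). The podocyte label, the comparisons and the lists of references were chosen with earlier results of these data known. In place of genes, the text names Podo under 4 denominators, PCT, DCT and Endo, other labels past the threshold in the non-proximal fit, the 3 nearest label centres and the labels around podocytes on the UMAP.

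Counts and exact Clopper-Pearson 95% intervals were computed with Python 3.11.15 (numpy 2.4.6, pandas 2.3.3, scipy 1.17.1). The interval of a ratio came from that of the podocyte part of both labels. Log2 of (count + 0.5) over (remainder or reference + 0.5) was fitted with limma 3.58.1 in R 4.3.3 with group and kit as terms over the 9 libraries, two-sided, with Benjamini-Hochberg adjustment over the 9 or 11 labels within each comparison and a threshold of 0.05. Libraries, not nuclei, were the replicates. The kit term is also the replicate block, since the numbered replicates of each group except Amiloride differ in kit. The Amiloride library is numbered as replicate 1 but was made with the Multiome kit and is placed by its kit. Neighbours were found with scikit-learn 1.9.0 and figures drawn with matplotlib 3.10.9. Scripts were tested on simulated data.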

Additional observations from a re-analysis of the deposited data

How the results depend on the processing

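Of 575 recomputed values, 488 kept their direction and side of the threshold, or for counts stayed within 1.5 times. Part of this was fixed by the design, so the count is not a rate of robustness. Without the Amiloride library, the limma fit of every comparison among the other groups is the same. Differences between groups with both kits also stay the same when a library of another group is left out. Leaving out the replicate block (the kit term that pairs libraries across groups) gave 0.29 for Amiloride against DOCA relative to PCT, where the sign turned, and ended the calls of Spironolactone against Control (-2.85, adjusted p = 0.365) and Finerenone against Spironolactone (2.72, adjusted p = 0.459) relative to PCT and of the latter relative to DCT (2.53, adjusted p = 0.0577) in limma. It lowered the labels called by share to 2 (DOCA against Control), 1 (Finerenone and Amiloride against DOCA, Spironolactone against Control) and 0 (Amiloride against Control), and changed no other podocyte call. As a share of all nuclei, Spironolactone against DOCA was -0.39. Without macrophages, Amiloride against Control was -1.39 and passed (limma, adjusted p = 0.0334). On the arcsine scale, Finerenone against Spironolactone was 0.11 and did not pass, with 0 labels called, and Spironolactone against Control had 1. With 1 added to counts, DOCA against Control relative to Endo was -1.61 and passed. In the exact permutation the ratio to Endo passed (p = 0.00833) where the share did not (p = 0.10).

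Leaving out 1 library at a time, the share ranged from 1.66 to 2.67 for Finerenone against DOCA, -0.26 to 0.50 for Spironolactone against DOCA (below 0 without the scATAC library of either), 1.09 to 1.53 for Amiloride against DOCA, -0.97 to 0.034 for Finerenone against Control (above 0 without Finerenone scATAC) and 1.54 to 2.54 for Finerenone against Spironolactone. Relative to PCT the ranges were -2.31 to -1.14 (DOCA against Control), 1.45 to 1.74 (Finerenone against DOCA), -1.84 to -0.42 (Spironolactone against DOCA, not called in any), -0.72 to 0.46 (Finerenone against Control), -3.56 to -2.14 (Spironolactone against Control), -2.65 to -1.48 (Amiloride against Control) and 2.01 to 3.43 (Finerenone against Spironolactone). Relative to DCT they were -3.79 to -2.48, 1.96 to 3.78, -1.18 to 0.64, -3.45 to -2.14, -2.96 to -1.65 and 1.61 to 3.44 for the same comparisons without Spironolactone against DOCA, which ranged from -0.071 to 0.76. Relative to Endo they were -1.78 to -1.50, -0.11 to 0.17, -2.43 to -2.09, -2.21 to -1.94 and 2.12 to 2.46 for DOCA, Finerenone, Spironolactone and Amiloride against Control and Finerenone against Spironolactone. The number of labels called by share ran from 2 to 5 (DOCA against Control), 0 to 4 (Finerenone against DOCA), 0 to 1 (Spironolactone against DOCA), 1 to 5 (Amiloride against DOCA), 1 to 2 (Spironolactone against Control), 0 to 1 (Amiloride against Control) and 0 to 1 (Finerenone against Spironolactone). The exact permutation of the share gave p between 0.0667 and 0.20, and that of the UMAP distance p between 0.0667 and 0.417. The causes of these changes were not tested. With 9 or 10 podocytes in some libraries and 1 Amiloride library, small differences may have been missed, and the smallest detectable difference was not computed.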
